A study of Mus musculus with 4 samples.

Results

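The 10 genes described here are known for their part in pigment cells: Tyr, Tyrp1, Dct, Pmel, Mlana, Slc45a2, Oca2, Mitf, Kit and Ednrb. They were taken by name from the 37239 genes measured in whole mouse cochleae, and each was found under a single identifier. RNA came from dissected cochleae at postnatal day 8, from wild-type mice (Ikzf2+/+) and from littermates homozygous for the cello allele (Ikzf2cello/cello), with 2 libraries per genotype described as biological duplicates. Ikzf2 encodes helios, a zinc finger transcription factor of outer hair cells, and cello is a missense allele of it. Strain and sex, and whether animals were pooled, are not stated in the labels. The p-values rest on the spread between the libraries of a genotype. Whether that is a spread between single animals or between pools is not known. Levels are counts scaled to the library total (CPM), taken from 42152616 to 49719984 alignments per library, of which 70.0% to 72.8% lay in genes. Each read added 0.0201 to 0.0237 CPM.

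Melanocytes of the cochlea arise from the neural crest and settle in the stria vascularis, the epithelium of the lateral wall that secretes potassium into the endolymph. There they form the intermediate cells, whose potassium channel Kcnj10 is needed for the endocochlear potential, and animals that lack them are deaf. The receptor Kit and the endothelin receptor Ednrb guide the survival and migration of the precursors, and the transcription factor Mitf sets the melanocyte programme. Mitf is known to bind a motif called the M-box upstream of the genes of the melanin enzymes tyrosinase (Tyr), tyrosinase-related protein 1 (Tyrp1) and dopachrome tautomerase (Dct). Pmel builds the fibrils of the melanosome, Mlana is a melanosome membrane protein, and Slc45a2 and Oca2 encode transporters that set the pH of the melanosome.

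The sequences just upstream of the 3 melanin enzyme genes are shown because these genes share a known regulator and a motif, while Tyrp1 had levels unlike those of Tyr and Dct. Each window runs from 250 bases before to 50 bases after the gene's start (RefSeq, build GRCm38.p6), read along the gene's strand. They are chr7:87493463-87493762 on the minus strand for Tyr, chr4:80833963-80834262 on the plus strand for Tyrp1 and chr14:118052197-118052496 on the minus strand for Dct. Capitals mark TCATGTG, the core of the M-box, or its reverse complement CACATGA.
Tyr: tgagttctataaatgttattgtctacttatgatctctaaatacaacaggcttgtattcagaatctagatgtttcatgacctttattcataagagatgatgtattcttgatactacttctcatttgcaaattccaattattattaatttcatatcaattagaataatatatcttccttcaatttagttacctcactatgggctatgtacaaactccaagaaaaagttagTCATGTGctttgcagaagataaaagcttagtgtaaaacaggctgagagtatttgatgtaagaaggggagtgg
Tyrp1: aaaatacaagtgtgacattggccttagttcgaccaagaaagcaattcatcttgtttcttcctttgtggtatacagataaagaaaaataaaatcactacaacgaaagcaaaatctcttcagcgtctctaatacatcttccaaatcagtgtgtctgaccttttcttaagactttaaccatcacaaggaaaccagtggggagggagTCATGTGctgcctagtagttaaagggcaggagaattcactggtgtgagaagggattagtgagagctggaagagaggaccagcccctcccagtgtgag
Dct: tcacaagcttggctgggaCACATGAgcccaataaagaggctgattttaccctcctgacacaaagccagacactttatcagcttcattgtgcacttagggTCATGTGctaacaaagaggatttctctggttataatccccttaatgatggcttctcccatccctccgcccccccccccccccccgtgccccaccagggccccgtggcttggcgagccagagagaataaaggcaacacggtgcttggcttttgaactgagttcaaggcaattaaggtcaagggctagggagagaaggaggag

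The motif begins 22 bases before the RefSeq start of Tyr and 47 bases before that of Tyrp1. The GENCODE position of Tyrp1 given below begins further upstream, at 80834123, so the motif lies inside the gene by that annotation. In the Dct window it occurs at 151 bases before the start and, on the opposite strand, at 232 bases. Of 32851 promoter windows of 300 bases in the same table, 3.77% hold TCATGTG on either strand. Of the 10 genes, 7 had at least 1 window, and the windows of Mitf, Kit, Ednrb and Oca2 hold no TCATGTG. The shorter CATGTG, which is part of TCATGTG, is found in 14.2% of all windows and also in that of Oca2. A match is a run of letters and not a measured binding site.

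Pigment genes other than Tyrp1 and Oca2 were well detected in the cochlea, and Dct was the most abundant of them. Dct stood at 922 and 988 CPM in the wild-type pair and at 711 and 733 CPM in the cello pair, and Tyr at 113 and 114 against 68.6 and 86.5 CPM. For both enzyme genes the cello libraries lay below the wild-type libraries, as was also the case for Slc45a2 and Mlana and for 28.7% of all genes tested. Mitf was higher in each cello library, whereas Kit and Ednrb overlapped between the genotypes. Pmel and Tyrp1 differed more between the 2 cello libraries than between the genotypes. By limma on log2(CPM + 0.5), with p-values adjusted over all 14721 genes tested, 0 of the 8 genes that could be tested passed an adjusted p of 0.05 in either direction, beside 0.00% of all genes in each direction. At an unadjusted p of 0.05, 3 were lower and 0 higher, beside 6.47% and 4.42% of all genes. Tyrp1 and Oca2 did not reach 1 CPM in at least 2 libraries and were not tested.

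**Figure D1:**
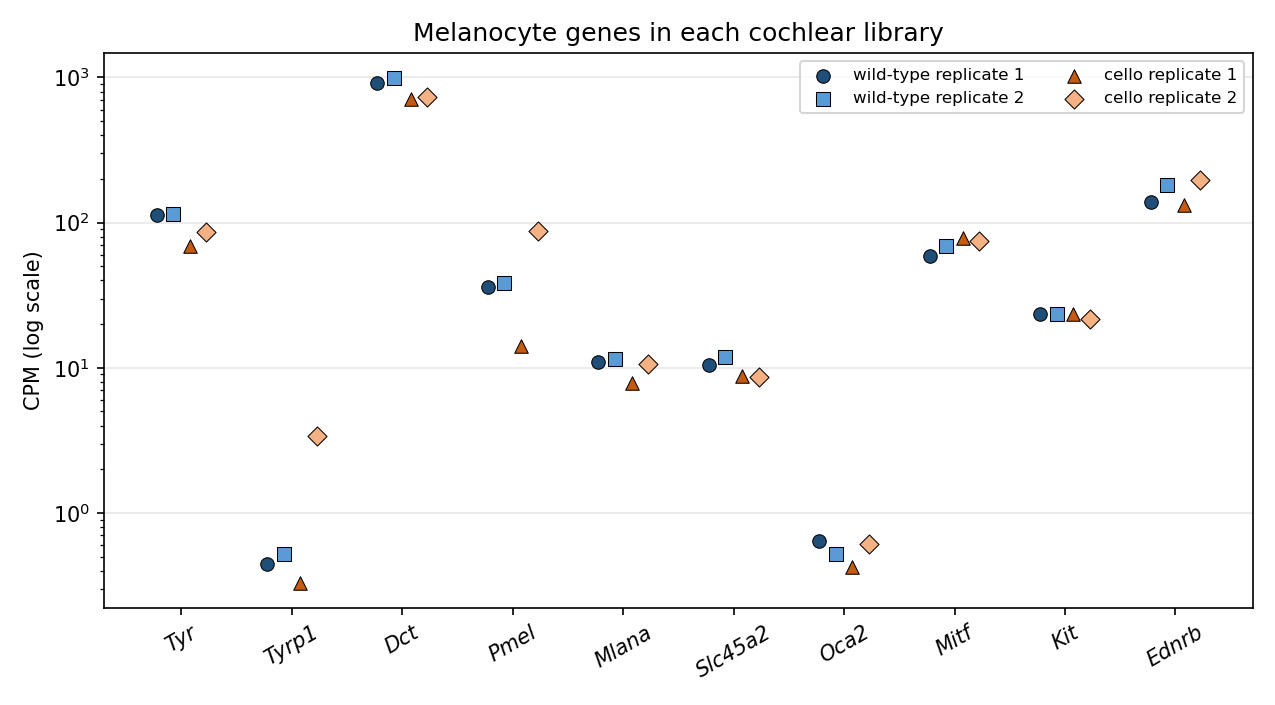
CPM of the 10 melanocyte genes (log axis) in each of the 2 wild-type and 2 cello libraries, with 1 point per library. Dct lies highest at 711 to 988 CPM, and Pmel and Tyrp1 are the genes with the widest spread between cello replicate 1 and cello replicate 2.

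The levels were also compared per length of exonic sequence, first in wild-type. Dct stood at 162 ± 7.93 CPM per kb (SD, n = 2), followed by Ednrb at 37.5 ± 6.86. Pmel at 16.2 ± 0.633 and Tyr at 16.0 ± 0.108 CPM per kb were not separated by their spread. Mlana at 10.7 ± 0.369 and Mitf at 10.3 ± 1.16 were not separated either. Slc45a2 (3.74 ± 0.327) lay above Kit (2.63 ± 0.0016). Tyrp1 (0.171 ± 0.0199) and Oca2 (0.147 ± 0.0217) were lowest and overlapped. Tyrp1 thus stood far below its relatives Tyr and Dct in wild-type cochleae. In cello Dct (122 ± 2.59 CPM per kb) and Ednrb (38.6 ± 10.5) again led and Tyrp1 and Oca2 were again lowest. Mitf (12.3 ± 0.361) and Tyr (10.9 ± 1.78) were not separated by their spread in cello, while the mean of Pmel (22.3 ± 22.7) has no clear place because its cello libraries stood at 6.21 and 38.3 CPM per kb.

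Of the regulators, Mitf (ENSMUSG00000035158, chromosome 6, 97807052 to 98021349 of GRCm38, plus strand) measured 58.9 and 69.1 CPM in the wild-type pair and 78.0 and 74.8 CPM in the cello pair. The genotypes did not overlap, and the log2 fold change of cello against wild-type was 0.26 (SE 0.10, limma, adjusted p = 0.459), with a 95% interval from -0.0017 to 0.52. Groups that did not overlap in this direction were found for 16.9% of the genes tested, and 1 of the 8 tested melanocyte genes was among them. Mitf is also a gene of osteoclasts and macrophages. Summed over 7 osteoclast markers the level was 137 to 144 CPM in wild-type and 315 and 126 CPM in cello, so it was high in cello replicate 1, whereas Mitf was higher in both cello libraries. None of these 7 markers was at 0 in every library. The 6 macrophage markers summed to 190 to 199 CPM in the wild-type pair and 191 to 197 CPM in the cello pair. Their part in the Mitf level was not tested.

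Kit, the receptor of stem cell factor, measured 23.4 and 23.4 CPM in the wild-type pair and 23.5 and 21.7 CPM in the cello pair (chromosome 5, 75574916 to 75656722, plus strand). Its log2 fold change was -0.05 (SE 0.09, limma, adjusted p = 0.852), with a 95% interval from -0.29 to 0.19. Kit was the melanocyte gene with the narrowest range over the 4 libraries. Mast cells and blood progenitors also carry Kit. Mast cell markers were low, with a sum of 5.91 to 9.09 CPM in wild-type and 5.49 to 5.67 CPM in cello over 8 genes, of which Fcer1a had 0 reads in every library. Gata2 and Cd34, which other cells also express, made up most of the 6 progenitor markers' sum of 171 to 187 CPM in the libraries. Hoxa9 was at most 0.0237 CPM. Of the 4 progenitor markers tested, 2 lay below 0 and 2 above. Flt3 was higher in cello, with 0.463 and 0.925 CPM in wild-type and 2.87 and 1.94 CPM in cello (1.29, limma, adjusted p = 0.419). Myb measured 2.98 and 2.68 CPM in wild-type and 3.51 and 1.45 CPM in cello. What these cells add to the Kit level was not tested.

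Ednrb (chromosome 14, 103814625 to 103844402, minus strand) measured 139 and 181 CPM in the wild-type pair and 133 and 196 CPM in the cello pair. Each genotype held a low and a high library and the groups overlapped. The log2 fold change was 0.03 (SE 0.22, limma, adjusted p = 0.970), with a 95% interval from -0.54 to 0.59, and it was -0.25 without cello replicate 2 and -0.16 without wild-type replicate 1. Glia and endothelium also express Ednrb. The 12 Schwann cell markers summed to 1061 and 2681 CPM in the wild-type pair and 3948 and 4830 CPM in the cello pair, so they rank the libraries in another order than Ednrb. The 6 endothelial markers summed to 169 to 170 CPM in the wild-type pair and 237 and 154 CPM in the cello pair, highest where Ednrb was lowest. What these cells add to the Ednrb level was not tested.

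Among the melanin enzymes, Dct (chromosome 14, 118012790 to 118052244, minus strand) had the highest level. Its mean was 955 ± 46.7 CPM for wild-type and 722 ± 15.3 CPM for cello (SD, n = 2), a ratio of 1.32. The log2 fold change was -0.40 (SE 0.12, limma, adjusted p = 0.429), with a 95% interval from -0.71 to -0.10. Tyr, the rate-limiting enzyme of melanin synthesis (ENSMUSG00000004651, chromosome 7, 87424771 to 87493512, minus strand), averaged 114 ± 0.766 and 77.6 ± 12.7 CPM (SD, n = 2), a ratio of 1.46. Its log2 fold change was -0.56 (SE 0.12, limma, adjusted p = 0.419), with a 95% interval from -0.88 to -0.24. For both genes the gap between genotypes was wider than the gap between the libraries of either genotype. DESeq2, run on whole reads recovered from the CPM, called both genes lower in cello, with an adjusted p of 0.00888 for Dct and 0.0355 for Tyr, beside 0.543% of all genes called lower by that test. EdgeR's quasi-likelihood test on the same reads called 0 genes in either direction. In the settings that kept all 4 libraries the adjusted p reached 0.578 for Dct and 0.516 for Tyr (limma, no filter). When each library was left out, the log2 fold change was -0.45 to -0.35 for Dct and -0.72 to -0.39 for Tyr. In bulk tissue, fewer cells of a type and less RNA per cell cannot be told apart.

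Tyrp1 (chromosome 4, 80834123 to 80851719, plus strand) was near the limit of detection in 3 libraries. It had 22 and 22 reads in wild-type and 14 and 160 reads in cello, which are 0.442, 0.522, 0.330 and 3.37 CPM. The exact 95% Poisson interval, which covers counting error only, was 2.87 to 3.94 CPM in cello replicate 2 and 0.180 to 0.553 CPM in cello replicate 1. Cello replicate 2 thus held 10.2 times the level of cello replicate 1, beyond counting error. The wild-type intervals, 0.277 to 0.670 and 0.327 to 0.790 CPM, overlapped that of cello replicate 1.

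Pmel, the fibril protein of the melanosome (chromosome 10, 128704195 to 128720238, plus strand), followed the same order. It stood at 36.1 and 38.2 CPM in wild-type, at 14.2 CPM in cello replicate 1 and at 87.9 CPM in cello replicate 2. The cello libraries lay on either side of wild-type and differed 6.17-fold. The log2 fold change of -0.06 (SE 0.81, limma, adjusted p = 0.981) has a 95% interval from -2.12 to 1.99, and it was 1.23 without cello replicate 1 and -1.35 without cello replicate 2. It was 0.50 in edgeR and 0.49 in DESeq2, so no direction can be given for Pmel. Cdk2 and Dgka overlap Pmel on the other strand, and the strand setting of the counting is not stated in the labels. Cdk2 stood at 36.6, 31.5, 31.7 and 35.7 CPM and Dgka at 30.7, 28.4, 30.1 and 25.8 CPM in the 4 libraries. Neither showed the gap of Pmel between the cello libraries. What reads of these 2 genes add to the Pmel level was not tested.

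**Figure D2:**
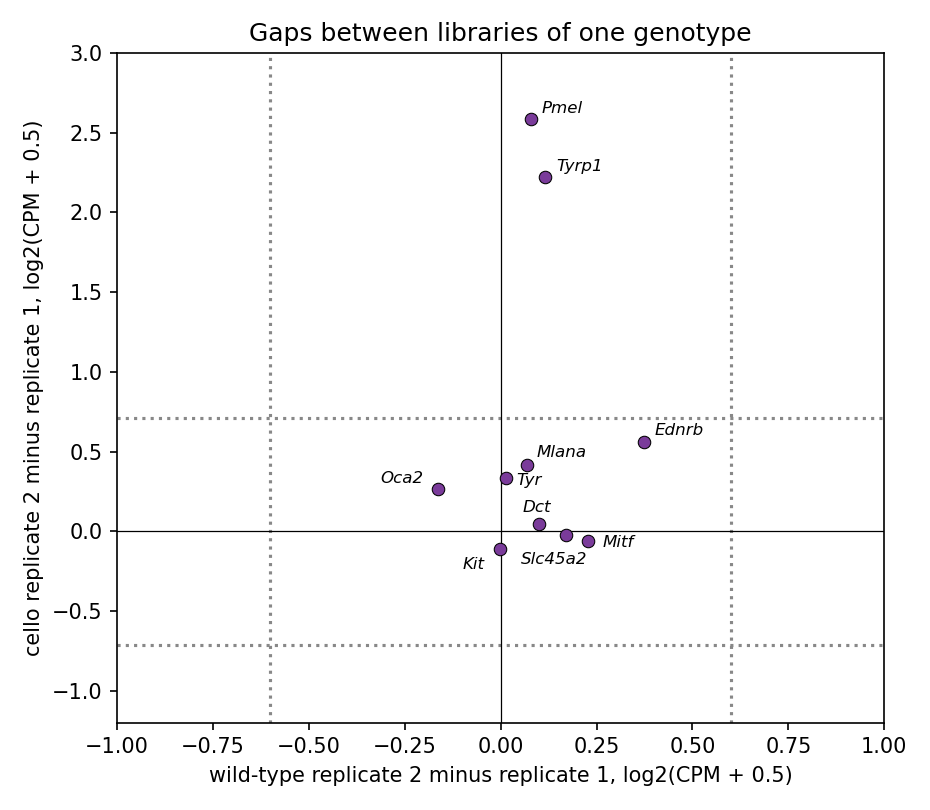
Difference between the libraries of a genotype on the log2(CPM + 0.5) scale, wild-type on the x axis and cello on the y axis, with 1 point per melanocyte gene and dotted lines at the 95th percentile of the absolute gap over the genes tested. Pmel (2.58) and Tyrp1 (2.22) lie above the upper cello line at 0.71, and the other 8 genes lie inside both pairs of lines.

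The size of these gaps was set beside those of all genes tested. The absolute gap between the cello libraries had a median of 0.16 on the log2 scale over the 14721 genes, and only 0.143% of genes had a gap as large as that of Pmel. For Tyrp1 the share was 0.306%, with Tyrp1 itself below the filter. Between the wild-type libraries the gaps of Pmel and Tyrp1 were 0.08 and 0.12, near the median of 0.11. The next largest cello gaps among the melanocyte genes were those of Ednrb (0.56), Mlana (0.41) and Tyr (0.33), each higher in cello replicate 2. Dct (0.04), Slc45a2 (-0.02) and Mitf (-0.06) differed least between the cello libraries.

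Mlana (chromosome 19, 29697824 to 29708634, plus strand) measured 11.0 and 11.6 CPM in the wild-type pair and 7.80 and 10.6 CPM in the cello pair. The groups did not overlap, but cello replicate 2 came close to wild-type. Its log2 fold change was -0.30 (SE 0.18, limma, adjusted p = 0.560), and it was -0.09 without cello replicate 1 and -0.50 without cello replicate 2. Slc45a2, a melanosome transporter gene (chromosome 15, 11000721 to 11029233, plus strand), measured 10.5 and 11.8 CPM in the wild-type pair and 8.72 and 8.57 CPM in the cello pair. Here both cello libraries were alike and below wild-type, with a log2 fold change of -0.35 (SE 0.13, limma, adjusted p = 0.452). Oca2 (chromosome 7, 56239760 to 56536518, plus strand) measured 0.644 and 0.522 CPM in the wild-type pair and 0.424 and 0.611 CPM in the cello pair, from 18 to 32 reads. At this depth no difference in Oca2 was detectable, since the counting intervals of all 4 libraries overlapped.

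**Figure D3:**
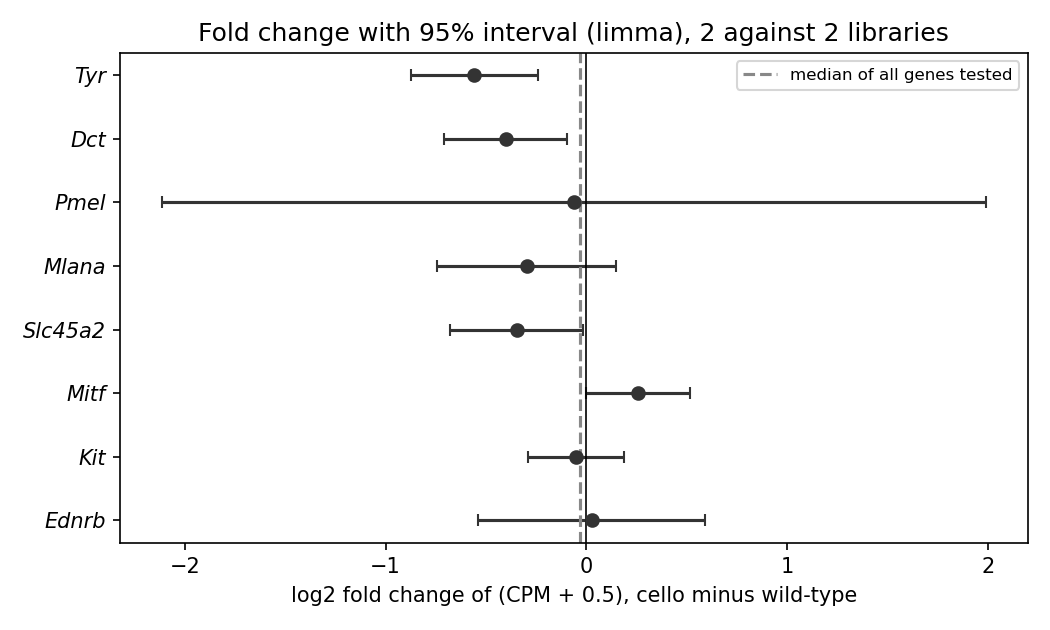
Log2 fold change of (CPM + 0.5), cello minus wild-type, on the x axis for the 8 melanocyte genes tested, with bars for the 95% interval from limma on 2 against 2 libraries and a dashed line at the median of all genes tested (-0.03). The intervals of Tyr, Dct and Slc45a2 lie below 0 without adjustment, and that of Pmel runs from -2.12 to 1.99.

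Of the 8 genes tested, 6 had a log2 fold change below 0 and 2 above, beside 56.6% of all genes below 0. Their median was -0.18, and that of all genes tested was -0.03. Without cello replicate 2 the median was -0.38, without cello replicate 1 it was -0.10, and over all 10 genes with no filter it was -0.08. At an unadjusted p of 0.05 limma placed 3 of the 8 lower (6.47% of all genes) and 0 higher (4.42%). Every cello library lay below every wild-type library for 4 of the 8, which holds for 28.7% of all genes. It held for 6 of the 8 without cello replicate 2, when Pmel and Ednrb were added and the share of all genes was 47.9%. It held for 5 of the 8 without cello replicate 1, when Kit was added and the share was 43.0%.

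The genes were also set against Dct, the most abundant of them, as reads per 1000 Dct reads in the same library. This quotient does not depend on how much of the library came from other cells, provided that other cells add few reads of either gene. Slc45a2 gave 11.3 and 12.0 in the wild-type pair and 12.3 and 11.7 in the cello pair, so its values overlapped once set against Dct. Mlana gave 11.9 and 11.7 in the wild-type pair and 11.0 and 14.4 in the cello pair. Tyr gave 123 and 116 in the wild-type pair and 96.5 and 118 in the cello pair, lower in cello replicate 1. Mitf was higher relative to Dct in both cello libraries. It gave 63.9 and 70.0 in the wild-type pair and 110 and 102 in the cello pair. Kit stood at 25.4 and 23.7 in the wild-type pair and 33.0 and 29.6 in the cello pair. Ednrb was also higher relative to Dct in both cello libraries. Dct itself was lower in cello (log2 fold change -0.40), so a gene with an unchanged CPM rises on this scale. Kit, with a log2 fold change of -0.05, is close to such a gene. Mitf, Kit and Ednrb are also genes of other cells, so the condition above may not hold for them. For Pmel the quotient was 39.2 and 38.7 in wild-type, 20.0 in cello replicate 1 and 120 in cello replicate 2. Tyrp1 gave 0.480 and 0.528 in wild-type, 0.464 in cello replicate 1 and 4.60 in cello replicate 2. The gap of Pmel and Tyrp1 between the cello libraries was therefore not shared by Dct. These quotients are descriptions of 4 libraries and were not tested.

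**Figure D4:**
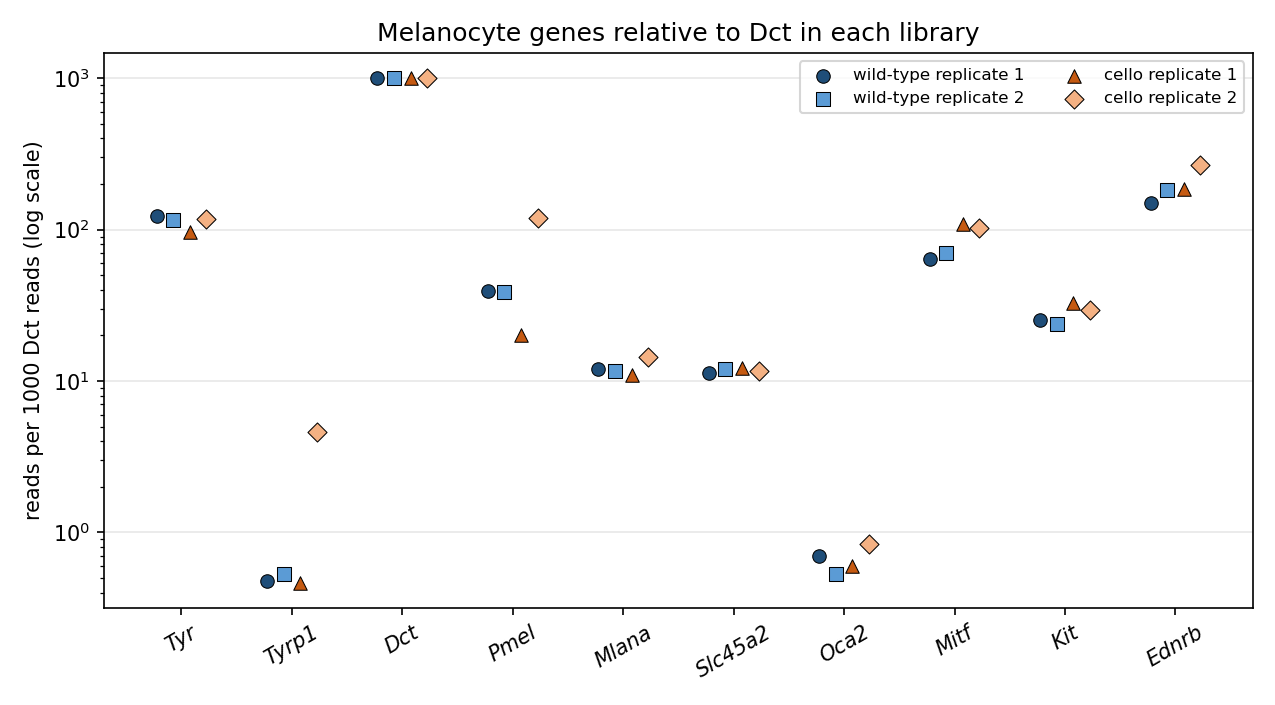
Reads of each melanocyte gene per 1000 Dct reads (log axis), with 1 point per library, so that Dct lies at 1000 by construction. Slc45a2 stays between 11.3 and 12.3, Mitf is at 63.9 and 70.0 for wild-type but 110 and 102 for cello, and Pmel spans 20.0 to 120.

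The wider pigment pathway was read from 3 lists written from general knowledge, and by limma 0 of their 52 tested genes passed in either direction. Of the 52, 34 lay below 0 (65.4%), beside 56.6% of all genes. The median of the 52 was -0.06, and that of all genes tested was -0.03. At an unadjusted p of 0.05 limma placed 3 lower and 2 higher, beside 6.47% and 4.42% of all genes, and DESeq2 called 0 at its adjusted threshold. Among regulators and ligands 12 of 16 genes were tested, with a median of -0.09. Zeb2, a transcription factor gene of neural crest derivatives, measured 51.8 and 65.1 CPM in the wild-type pair and 75.8 and 79.5 CPM in the cello pair (0.41, limma, adjusted p = 0.429). Edn3, the ligand of Ednrb, stood at 14.6 and 16.8 against 9.82 and 13.5 CPM (-0.43), and Mgrn1, a ubiquitin ligase gene, had a log2 fold change of -0.16. Sox10, which drives Mitf in melanocytes and is shared with Schwann cells, measured 125 and 134 CPM in the wild-type pair and 119 and 118 CPM in the cello pair. Sox10 did not follow the Schwann cell sum given above, whereas Zeb2 ranked the libraries in the order of that sum. The part of Schwann cells in the Zeb2 level was not tested. Kitl, the ligand of Kit, measured 20.9 and 20.0 CPM in the wild-type pair and 29.6 and 20.6 CPM in the cello pair. Mc1r, the melanocortin receptor of skin melanocytes, was at most 0.214 CPM in any library.

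The list of melanosome content and transport had 19 tested genes, with a median of -0.09. Of these, 13 lay below 0 (68.4%), beside 56.6% of all genes. Trpm1, a cation channel gene of melanocytes, measured 82.0 and 87.9 CPM in the wild-type pair and 46.3 and 69.1 CPM in the cello pair (-0.58, limma, adjusted p = 0.441). Trpm1 resembled Tyr in that cello replicate 1 was lowest. Tspan10, a tetraspanin gene, had a log2 fold change of -0.37, and Myo5a, the myosin that carries melanosomes and is also a neuronal gene, stood at 0.37. Myo5a measured 78.3 and 96.0 CPM in the wild-type pair and 104 and 121 CPM in the cello pair. That is the library order of the Schwann cell sum, which Tmem163 below also follows. The part of Schwann cells in these levels was not tested. Gpnmb, a relative of Pmel, measured 233 and 233 CPM in the wild-type pair and 167 and 210 CPM in the cello pair. Tmem163, a zinc transporter gene named after its values were seen, had the largest positive value of the list, with 0.905 and 3.99 CPM in the wild-type pair and 5.49 and 5.58 CPM in the cello pair (1.27, limma, adjusted p = 0.479). Slc24a5, a melanosome exchanger gene named after its values were seen, stood at 1.71 and 1.87 CPM in wild-type, at 1.60 CPM in cello replicate 1 and at 4.87 CPM in cello replicate 2, which is the order of Tyrp1. Of the BLOC, AP-3 and HOPS sorting complexes 21 genes were tested, 14 of them below 0 (66.7%), with a median of -0.06. Hps1 (-0.34), Hps6 (-0.36) and Hps4 (-0.19) had the smallest p there. These complexes serve lysosome-related organelles of many cell types.

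The strial lists gave medians on the same side of 0, where the median of all genes tested (-0.03) also lay. The intermediate cells are themselves the melanocytes of the stria. Intermediate cell genes outside the pigment lists had a median of -0.11 over 7 genes. Marginal cell genes had one of -0.27 over 13 and basal and spindle cell genes one of -0.26 over 8. By limma 0 members of these lists passed in either direction, with 3, 5 and 2 lower and 1, 1 and 0 higher at an unadjusted p of 0.05, beside 6.47% and 4.42% of all genes. In the intermediate cell list Gsta4, a glutathione transferase gene, had a log2 fold change of -0.33 and Bace2, a protease gene that acts on Pmel, one of -0.26. Cadm1, an adhesion gene, measured 66.9 and 76.8 CPM in the wild-type pair and 99.1 and 94.1 CPM in the cello pair (0.43), and DESeq2 called it higher (adjusted p = 0.0261, beside 0.781% of all genes called higher). Kcnj10, the potassium channel of intermediate cells that is shared with glia and supporting cells, measured 184 and 235 CPM in the wild-type pair and 225 and 164 CPM in the cello pair, and the groups overlapped. The marginal cell genes Kcne1 (-0.42) and Esrrb (-0.38) and the basal cell genes Cldn11 (-0.42) and Nr2f2 (-0.40) lay close to Dct (-0.40), as did the connexin gene Gjb2 (-0.32). DESeq2 called Kcne1 and Cldn11 lower among these, beside 0.543% of all genes. Values of this size were thus also measured in strial genes with no part in pigment.

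**Figure D5:**
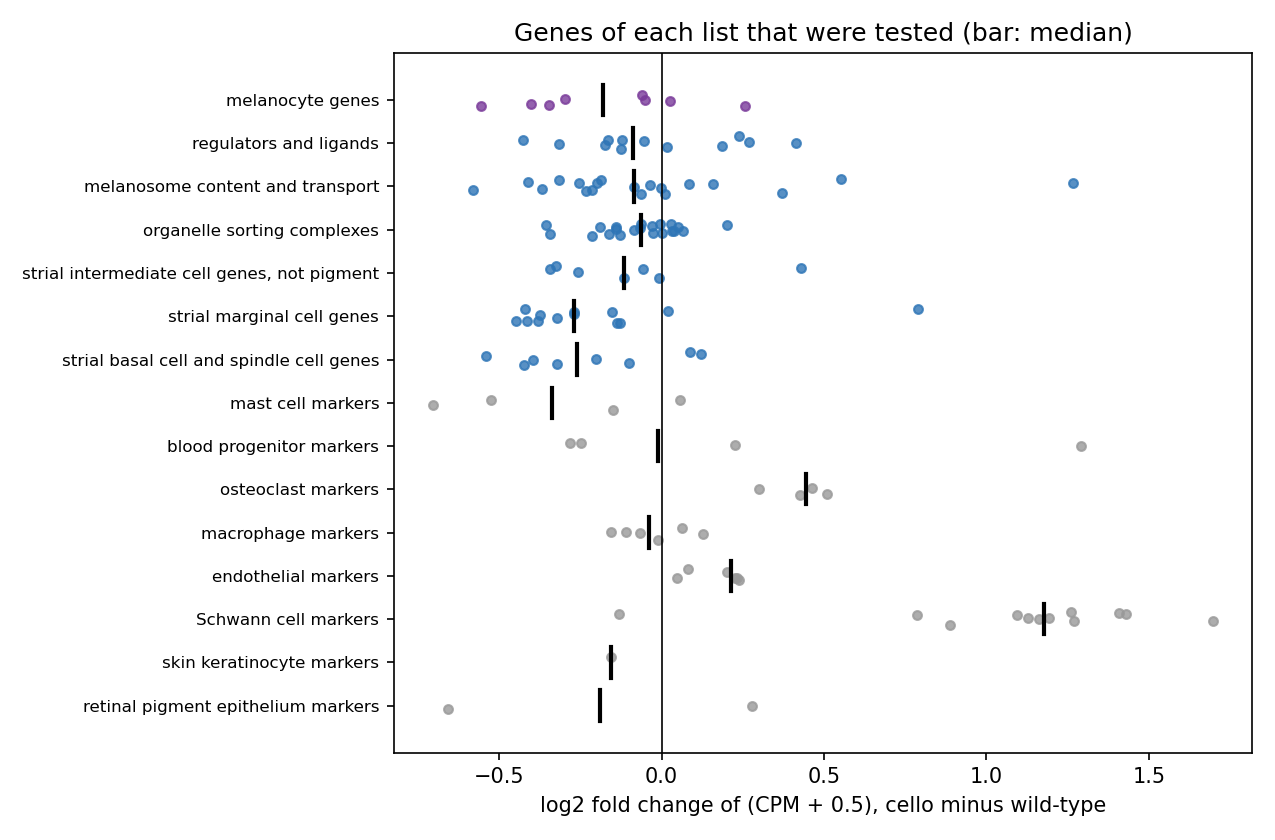
Log2 fold change of (CPM + 0.5), cello minus wild-type, on the x axis for the tested genes of each list, with 1 point per gene and a bar at the median. Melanocyte genes (median -0.18) lie between the pigment pathway lists and the strial marginal and basal lists (-0.27 and -0.26), and Schwann cell markers lie to the right (1.18).

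The labelled tissue was checked for pigment cells of other sites. Rpe65, which defines the retinal pigment epithelium, was at 0 reads in 2 libraries and at most 0.0236 CPM in the others. The 6 markers of that epithelium summed to 92.8 and 99.7 CPM in the wild-type pair and 70.2 and 80.9 CPM in the cello pair, nearly all of it from Rlbp1 and Ttr, which other cells also express. Ttr stood at 38.5 CPM in cello replicate 2 and at 19.3 to 23.9 CPM in the other libraries. Skin keratinocyte markers summed to 9.37 to 10.3 CPM in the wild-type pair and 7.75 to 8.66 CPM in the cello pair over 8 genes, most of it from Krt10, and Krt5 was at most 0.308 CPM. The part of such cells in the levels of Pmel and Tyrp1 was not tested. Whole cochlear RNA does not show in which part of the cochlea the pigment cells lay.

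Genes with the profile most like that of Tyr, Tyrp1 and Dct were ranked by the root mean square difference of centred log2 values over the 4 libraries, among 11720 genes with a mean of at least 5 CPM. The melanocyte genes themselves were left out of this ranking. Predicted or unnamed genes and pseudogenes were passed over when the closest were named, but they count in the ranks. The closest genes so named were Csrp2, Pnck, Smim10l2a, Calca and Cntnap3, with differences of 0.0097 to 0.0378. Csrp2 stood at 37.6, 40.1, 28.4 and 51.3 CPM, a profile that carries the high cello replicate 2 of Tyrp1. With Tyr and Dct alone, a choice made after their values were seen, the closest were Tmod1, Epcam, Cygb, Etnppl and Fzd8, with differences of 0.0119 to 0.0240. Tmod1 measured 182 and 188 CPM in the wild-type pair and 126 and 141 CPM in the cello pair. Of the pathway and strial genes, Cldn11 came nearest to Tyr and Dct alone, at rank 11. Nr2f2 followed at rank 32, Esrrb at rank 54 and Tspan10 at rank 80. With Tyrp1 included these genes stood at ranks 5591, 4752, 5201 and 5276, in that order, and Mreg came nearest at rank 51. With 4 libraries many genes share a profile by their order alone.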

How the data were processed

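TruSeq libraries of whole cochlear RNA were sequenced, per the labels. The submitters' processing notes name TopHat and GRCm38. Which program counted the reads, with what strand setting and annotation, is not given in the sources used here. The authors deposited CPM per gene, scaled to every counted alignment, 5 entries without a gene name among them. Those entries held 27.2% to 30.0% of alignments and entered no test. All values (100%) were whole multiples of 1 read (tolerance 0.001), so reads could be recovered from them. Symbols for 36504 of 37239 identifiers came from GENCODE M21 (GRCm38), as did positions and exonic lengths (the union of exons).

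Genes reaching 1 CPM in 2 or more libraries (14721) were fitted as log2(CPM + 0.5) with limma 3.58.1 in R 4.3.3, using a variance trend, two-sided tests and Benjamini-Hochberg adjustment over all of them. Fold changes on this scale understate low genes. With 2 against 2 libraries the smallest exact permutation p is 0.333, so none was used. EdgeR 4.0.16 and DESeq2 1.42.0 (1142 adjusted p undefined), both run on recovered reads, called 0 genes and 195 genes. The scripts were tested on simulated data. The members and lists were chosen with earlier results of these data known. All 10 genes are named, and up to 3 genes of each pathway and strial list with the smallest p, except 1 gene of the marginal cell list that is not reported here by name. Sox10, Kitl, Mc1r, Gpnmb, Kcnj10, Slc24a5, Tmem163 and genes of marker lists were named after their values were seen. Alternatives were other pseudocounts, filters, scalings, variance models and count tests, the replicate block, and leaving out each library. Asip was not analysed here.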

Additional observations from a re-analysis of the deposited data

How the results depend on the processing

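With 2 libraries per genotype the spread is estimated from few values, and Tyrp1 and Oca2 are limited by reads. Tyr, Dct, Mlana and Slc45a2 kept a value below 0 and Mitf one above 0 under every setting run. Limma called 0 of the melanocyte genes under every limma setting, as did the single edgeR run, and DESeq2 called 2 lower. Over all genes DESeq2 called 80 lower and 115 higher, and leaving out each library in turn gave 0 to 90 higher, the 90 without wild-type replicate 2, where the lone library is assumed to vary like the others. The median of the melanocyte genes ranged from -0.38 (without cello replicate 2) to -0.10 (without cello replicate 1) when each library was left out, and was -0.08 with no filter, which adds Tyrp1 and Oca2. The number of these genes with cello above wild-type in every library was 1 (16.9% of all genes), and 1 to 3 when each library was left out, an alternative chosen after seeing the data, with 3 without cello replicate 1 (34.3% of all genes) and 2 without cello replicate 2 (32.5%). Pmel turned to 0.50 in edgeR, 0.49 in DESeq2 and 1.23 without cello replicate 1, and leaving out a library moved it from -1.35 to 1.23. Ednrb turned to -0.16 without wild-type replicate 1 and was between -0.25 and 0.31 over all 4 omissions, and Kit was between -0.11 and 0.0037, its value without cello replicate 2. The cause was not tested. The labels do not say that equal replicate numbers share a litter or day. The gaps between replicates 1 and 2 in the 2 genotypes correlated at 0.13 over genes, and with the replicate block the number of calls stayed at 0, the median was -0.18, and the adjusted p was 0.237 for Tyr and 0.354 for Dct (limma).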

Other observations

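Genes that shared the profile of Pmel and Tyrp1, low in cello replicate 1 and high in cello replicate 2, were looked for after those values were seen, by the same root mean square difference of centred log2 values. With the same omissions, the closest of 11720 genes were Nell1 (0.36), Tecta (0.41), Chrna4 (0.41), Cyp26b1 (0.42) and Glb1l2 (0.44). Tecta, which encodes the tectorial membrane protein alpha-tectorin, measured 115 and 127 CPM in the wild-type pair and 35.1 and 251 CPM in the cello pair. Cyp26b1, which encodes an enzyme that breaks down retinoic acid, measured 22.0 and 20.8 CPM in the wild-type pair and 11.5 and 33.3 CPM in the cello pair. Nell1, a secreted protein gene, measured 7.06 and 7.02 CPM in the wild-type pair and 2.57 and 12.3 CPM in the cello pair. Of the pathway and strial lists, Dpp10 (rank 87) and Mreg, a gene of melanosome transfer (rank 144), came nearest. Mreg measured 13.7 and 13.0 CPM in the wild-type pair and 8.95 and 15.2 CPM in the cello pair. Their relation to Pmel and Tyrp1 was not tested.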
